A study of Mus musculus with 39 samples.

Results

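The response of mouse liver to phenobarbital was followed for how it grew or faded with the length of treatment. All 39 arrays of the study entered, and the quantity described is the mean phenobarbital effect of days 28 and 91 (the late effect) minus the mean effect of days 1 and 7 (the early effect). An effect is the mean log2 signal of phenobarbital arrays minus that of the control arrays of the same day, so a value of 1 is a 2-fold difference. Of 12580 genes tested, 281 (2.23%) passed the threshold of an adjusted p under 0.05 in limma with Benjamini-Hochberg adjustment. The late effect lay above the early effect in 66 of them (0.525%) and below it in 215 (1.71%).

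The arrays, Affymetrix mouse GeneChips read as deposited log2 values, were made from whole liver of male B6C3F1/Crl mice. On arrival the animals were 29 to 32 days of age. They were acclimatised for 5 days, and then drank water with 0.05% (w/v) phenobarbital or served as controls for 1, 7, 28 or 91 days, so the early arrays come from younger animals than the late ones in both arms. There were 4 arrays of day 1 controls and 5 in the remaining 7 groups, which makes 19 early and 20 late arrays. Replicate numbers used here follow the order of deposition within a group, only name an array, and pair nothing across groups. Nothing in the labels says that arrays are different animals, and p-values therefore reflect only the spread among these samples, which may be technical.

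Phenobarbital is an anticonvulsant that activates the nuclear receptor CAR in hepatocytes. CAR induces enzymes of drug metabolism, which oxidise foreign compounds (phase I), conjugate them and export them, and it drives a wave of hepatocyte DNA synthesis when treatment begins. In mice, phenobarbital given for months promotes liver tumours without damaging DNA, and both the early growth and the sustained enzyme induction belong to the classical description of its action.

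Replicates of a group had Pearson correlations of 0.989 to 0.997 across all probe sets. Array means were 6.24 for phenobarbital and 6.26 for control at day 1. Markers of hepatocytes were bright on every array, with list means of 14.3 to 14.4 in all groups. Several arrays stood apart. The mean over exocrine pancreas markers was 10.8 in day 1 phenobarbital replicate 3 and 5.78 to 5.92 in the other arrays of that group, and stayed between 5.64 and 6.07 in the other 7 groups. The mean over neutrophil markers was 8.31 in day 7 phenobarbital replicate 3 against 5.55 to 5.77 in the other arrays of that group, and Kupffer cell markers were also highest there, at 10.6. Day 1 control replicate 4 was low in mitosis genes, with a list mean of 6.03 against 7.41 to 7.59 in the other day 1 controls. Without these arrays, in that order, 297, 280 and 190 genes passed, of which 257, 249 and 180 were among the 281 and moved the same way. None of the tested members of the pancreas (6 genes), neutrophil (5) and Kupffer cell (13) lists passed, against 2.23% over all genes. The part of these cells in other results was not tested. Spike-in probe sets, which are hybridization controls, averaged 9.96 in the day 7 controls and 10.7 to 11.2 in the other groups. When the fit included the mean of these probe sets, 314 genes passed, 177 of them among the 281.

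The genes whose response differed between late and early days fell into 5 classes, read from which of the early and late effects passed their own tests and from their signs. A rise that grew was seen in 30 genes and a fall that grew in 72. A rise that faded was the most frequent class with 110 genes, a fall that faded held 32, and 37 genes reversed sign. Single arrays moved some of these counts by more than 1.5 times. Without day 1 control replicate 4 the genes higher late numbered 41 and the growing falls 47, and without day 7 phenobarbital replicate 4 the fading rises numbered 71. The fading falls were 18, 19, 20, 21, 49 or 53 without day 1 control replicate 4, day 7 phenobarbital replicate 4, day 7 control replicate 2, day 91 phenobarbital replicate 5, day 1 control replicate 1 or day 7 phenobarbital replicate 1. Since the same arrays chose the genes and define the classes, these counts are a description. The late minus early difference reached 2-fold in 14 genes upward and 8 downward, and its median over all tested genes was -0.02.

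**Figure D1:**
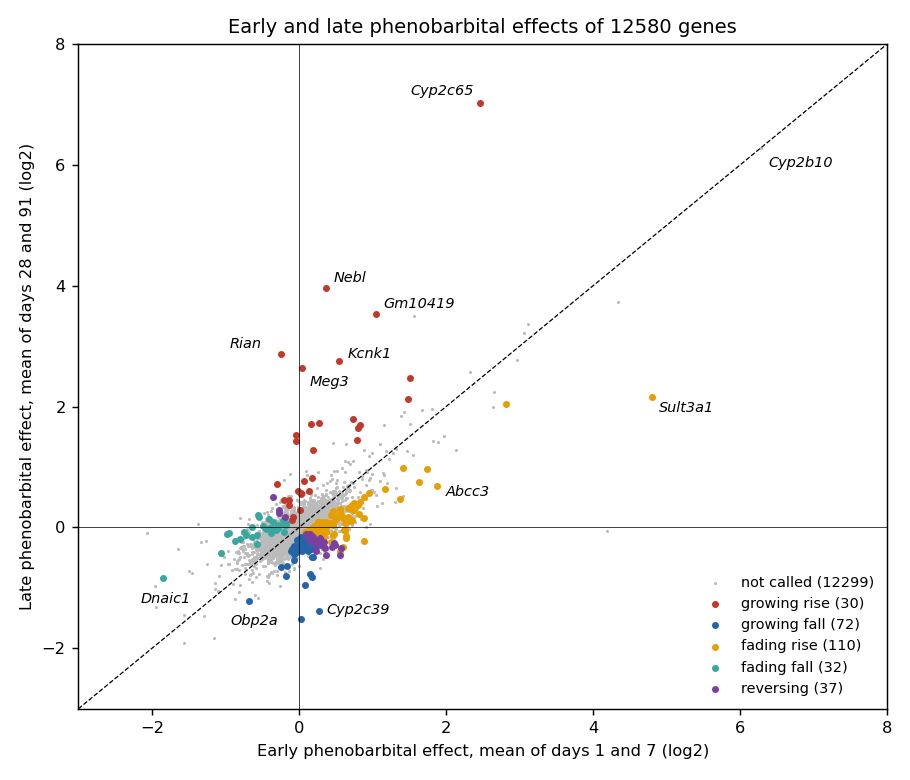
Early effect (horizontal, mean of days 1 and 7) against late effect (vertical, mean of days 28 and 91) of each tested gene, both as log2 phenobarbital minus control, with called genes coloured by class and the dashed line marking equal effects. Cyp2c65, Nebl, Gm10419, Rian, Kcnk1 and Meg3 stand far above the line, Sult3a1 and Abcc3 below it, and Cyp2b10 lies on it.

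By the class medians, most of the fading happened within the early days. The day 1 effect was larger in size than the day 7 effect in 84 of the 110 fading rises. Others, such as Sult3a1, Gsta2 and Cyp2c29 below, had their largest effect at day 7 and faded after it. In the 110 fading rises the median effect was 0.50 at day 1, 0.16 at day 7, 0.05 at day 28 and -0.06 at day 91. The fading falls ran from a median of -0.70 at day 1 to -0.30, -0.13 and 0.07 on the later days. Growing rises went the other way, from -0.04 at day 1 to 0.28, 0.97 and 1.48. The growing falls had a median above 0 at day 1, of 0.17, and then -0.09, -0.19 and -0.34. That class is read from the mean of days 1 and 7, so it also holds genes that were raised at day 1. All 4 differences between a late and an early day had the sign of the main difference in 208 of the 281 genes, 3 of the 4 did in 67 and 2 in 6.

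Over all tested genes, 1522 were higher and 2289 lower with phenobarbital in the early effect (12.1% and 18.2%, together 30.3%), and 964 were higher and 2494 lower in the late effect (7.66% and 19.8%). The share of higher genes among these calls depended on scaling. It was 39.9% early and 27.9% late with the deposited values, 58.2% and 51.4% after quantile normalization, and 61.4% and 50.3% after centring each array on its median. For the late minus early difference the share was 23.5%, 26.9% and 22.5% under the same 3 scalings.

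The largest growth of a response was in Cyp2c65, a cytochrome P450 of the Cyp2c cluster. Its 250 bases before the start of transcription, from RefSeq on GRCm38.p6, chr19:39060756-39061005, plus strand, are shown because this gene had the largest late minus early difference of all genes tested. Capitals mark 1 TTTGAA match (read here on the other strand) and 1 TATAAA match.

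Cyp2c65: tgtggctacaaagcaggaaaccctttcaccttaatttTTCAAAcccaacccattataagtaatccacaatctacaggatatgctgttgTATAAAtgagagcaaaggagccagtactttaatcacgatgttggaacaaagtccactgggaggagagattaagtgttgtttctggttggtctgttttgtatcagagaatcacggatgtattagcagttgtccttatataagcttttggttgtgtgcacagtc

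Cyp2c65 signals in the control arrays were 4.15, 3.87, 3.94 and 4.18 at day 1, 4.14, 3.89, 3.83, 3.67 and 3.84 at day 7, 3.91, 4.0, 3.63, 3.80 and 3.83 at day 28 and 3.83, 3.62, 3.49, 4.28 and 3.95 at day 91, and the mean of each control group lay below the lower quartile of the array. The phenobarbital arrays read 4.92, 4.47, 5.36, 5.23 and 5.47 at day 1, 9.53, 8.75, 6.04, 6.92 and 7.43 at day 7, 10.72, 10.81, 10.65, 10.72 and 10.91 at day 28 and 11.14, 10.74, 11.15, 10.90 and 10.92 at day 91. Every phenobarbital array lay above all controls of its day, the day 7 arrays spread over more than 3 log2 units, and the late arrays of both days lay above every early one. The effect was 1.06, 3.86, 6.93 and 7.13 at days 1, 7, 28 and 91, and the late minus early difference was 4.57 (SE 0.33, adjusted p = 4.81e-12). No fold is given against controls this dim. Cyp2c65 had 1 probe set, with an _s_at suffix, so no other probe set of the gene could be compared.

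Nebl, which encodes nebulette, an actin-binding protein best known from heart muscle, was the growing rise with the smallest p-value. Only its late phenobarbital arrays brought it past the filter on dim signals. At day 28 its phenobarbital arrays read 8.06, 8.01, 8.19, 7.47 and 8.24, and at day 91 9.10, 8.21, 9.35, 9.02 and 8.53. All control arrays of the 4 days lay at 4.14 to 4.71, and the day 1 and day 7 phenobarbital arrays at 4.25 to 5.29, so early arrays of both arms overlapped and late phenobarbital arrays stood clear of everything else. The effect went from 0.15 and 0.59 on the early days to 3.58 and 4.33, and the difference was 3.59 (SE 0.16, adjusted p = 2.39e-18). Of its 3 probe sets 2 passed in the same direction, and the lowest value among the 3 was 0.23.

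Gm10419, a predicted gene, rose by steps. Its phenobarbital arrays lay at 4.65 to 5.07 at day 1, 4.97 to 6.63 at day 7, 7.74 to 8.68 at day 28 and 7.77 to 8.87 at day 91, while control arrays stayed at 4.10 to 5.31. The late minus early difference was 2.48 (SE 0.23, adjusted p = 1.38e-09). Kcnk1, which encodes a potassium channel with a pair of pore domains, did not follow these steps. Its phenobarbital arrays lay at 5.90 to 6.39 at day 1 and 5.55 to 6.19 at day 7, then at 7.79 to 8.30 at day 28, and read 9.56, 7.47, 9.97, 9.49 and 8.45 at day 91. Controls stayed at 5.13 to 6.17, and the difference was 2.21 (SE 0.26, adjusted p = 7.47e-07).

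**Figure D2:**
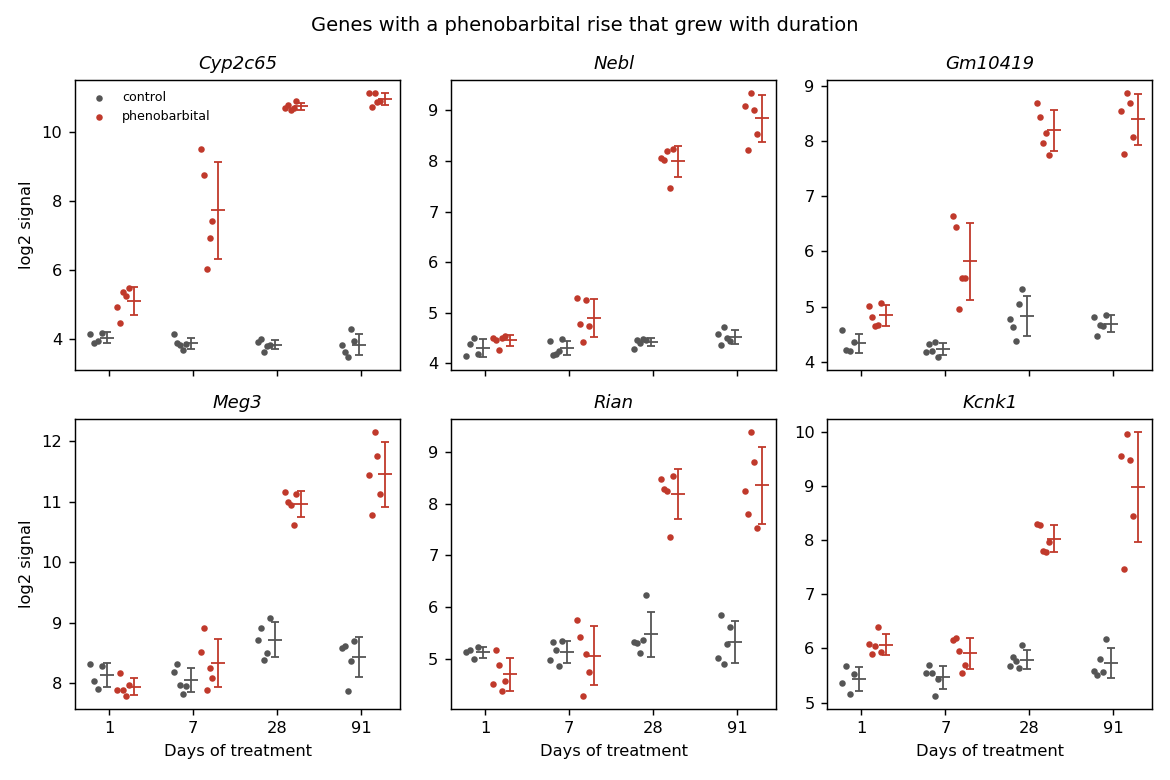
Signal per array (log2, vertical) by days of treatment for 6 genes with growing rises, with control arrays in grey, phenobarbital arrays in red, and the group mean with SD beside the points. Late phenobarbital arrays stand above all controls in each gene, with Kcnk1 spread from 7.47 to 9.97 at day 91.

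Meg3 and Rian, noncoding transcripts of the Dlk1-Dio3 imprinted cluster, had rises that grew, and Mirg, of the same cluster, was in the reversing class. The noncoding RNAs of the cluster are expressed from the maternal chromosome. Of its genes 3 were tested (Meg3, Rian and Mirg), and all 3 were called with a higher late effect, against 0.525% over all genes. The median of their difference was 2.59, against -0.02 over all tested genes. Another of the 7 listed members was measured but did not pass the filter on dim signals.

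The Meg3 promoter window is shown because the start of this transcript lies at the head of the cluster's maternal RNAs. It is 1 of 2 windows listed for the gene and covers chr12:109540746-109540995 on the plus strand of GRCm38.p6 (RefSeq). Capitals mark 1 CCAAT match and 2 overlapping TATAAA matches, 1 on each strand.

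Meg3: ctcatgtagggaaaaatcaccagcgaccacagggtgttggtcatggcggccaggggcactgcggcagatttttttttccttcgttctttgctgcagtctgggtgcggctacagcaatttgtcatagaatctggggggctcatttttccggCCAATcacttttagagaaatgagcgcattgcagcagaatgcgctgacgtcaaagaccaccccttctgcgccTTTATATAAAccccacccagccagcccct

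Meg3 signals with phenobarbital were 7.90, 8.18, 7.89, 7.80 and 7.97 at day 1, 8.51, 8.91, 7.89, 8.26 and 8.10 at day 7, 11.16, 10.99, 10.94, 10.62 and 11.12 at day 28 and 11.43, 10.78, 12.15, 11.76 and 11.13 at day 91. Controls read 8.32, 8.03, 7.91 and 8.29 at day 1, 8.18, 8.32, 7.97, 7.83 and 7.96 at day 7, 8.72, 8.91, 8.38, 8.50 and 9.08 at day 28 and 8.58, 8.62, 7.87, 8.38 and 8.70 at day 91. The arms overlapped at days 1 and 7, and at days 28 and 91 every phenobarbital array lay above every control by more than 1 log2 unit. The difference was 2.59 (SE 0.19, adjusted p = 6.21e-12), and 7 of its 11 probe sets passed in this direction with none called the other way.

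Rian lay at 4.29 to 5.76 in the early phenobarbital arrays and read 8.48, 8.28, 8.25, 7.34 and 8.54 at day 28 and 8.24, 7.80, 9.38, 8.80 and 7.53 at day 91, against 4.90 to 6.23 in the late controls. Its difference was 3.11 (SE 0.28, adjusted p = 1.03e-09). Mirg moved far less. Its effect was -0.40, -0.15, 0.18 and 0.29 at days 1, 7, 28 and 91, negative early and positive late, so that it counts among the reversing genes, with a difference of 0.51 (SE 0.09, adjusted p = 0.00153). The list of 15 other imprinted genes tested had 0 called in either direction, against 2.23% over all genes. The nearest to the threshold was Ndn, at -0.31 (SE 0.09, adjusted p = 0.0681).

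Some growing rises had their highest effect at day 91. Moxd1, a monooxygenase with a copper centre and male-biased in mouse liver, read 6.54, 5.41, 4.81, 4.78 and 5.31 at day 28 and 8.05, 5.03, 9.01, 7.85 and 6.60 at day 91 with phenobarbital, against 4.34 to 4.89 in all controls. Its day 91 arrays spread over almost 4 log2 units and replicate 2 lay close to the controls. The difference was 1.54 (SE 0.37, adjusted p = 0.0191). Tmeff2, a transmembrane protein with follistatin-like domains, had effects of 0.19, 0.20, 0.78 and 1.79 over the 4 days and a difference of 1.09 (SE 0.18, adjusted p = 0.00116). Ackr3, an atypical chemokine receptor that binds CXCL12, read 5.64 to 6.96 in early and 4.89 to 5.42 in late controls. Its phenobarbital arrays read 5.69 to 6.81 early, 5.91, 6.76, 7.08, 5.48 and 5.66 at day 28 and 8.0, 5.71, 7.64, 8.01 and 6.61 at day 91, above all controls of the day on both late days, and the difference was 1.58 (SE 0.30, adjusted p = 0.00252).

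The order of the day 91 phenobarbital arrays was shared by part of the growing rises. Of the 15 growing rises named here, 10 had their highest day 91 value on replicate 3 and 10 had their lowest on replicate 2. Meg3, Nebl, Kcnk1, Gm10419, Moxd1, Tmeff2 and Cyp2c65 did both. Serpinb1a had the opposite order, highest on replicate 2 and lowest on replicate 3. Pnpla3 was highest on replicate 2 and lowest on replicate 1, and Cyp2d12, Orm3 and Rian were lowest on replicate 5.

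Enzymes and carriers were also among the growing rises. Cyp2d12, a further cytochrome P450, had effects of 0.00, 0.54, 1.40 and 2.07 and a difference of 1.46 (SE 0.18, adjusted p = 3.83e-06). Serpinb1a, an inhibitor of neutrophil proteases, rose in both arms between early and late days, more so with phenobarbital, from 5.11 to 5.72 at day 1 to 9.15 to 10.17 at day 91, against 5.16 to 5.42 and 7.63 to 7.85 in controls, with a difference of 1.06 (SE 0.19, adjusted p = 0.0018). Abcc4, an exporter of conjugates at the hepatocyte's blood-facing membrane, was already raised by 1.19 at day 1 and reached 2.78 at day 91. Its difference was 0.96 (SE 0.26, adjusted p = 0.0451), and the call was lost in 29 of the 39 fits that left out 1 array each. Pnpla3, a lipid droplet protein, had a difference of 1.47 (SE 0.39, adjusted p = 0.0372), lost in 15 of these fits, and Orm3, an acute phase glycoprotein, one of 0.64 (SE 0.18, adjusted p = 0.0484), lost in 31.

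Cdh1, the epithelial cadherin and a periportal marker in liver, entered the growing rises through its controls. Control arrays read 10.41, 10.46, 10.23, 10.52 and 10.40 at day 28 and 9.62, 9.14, 8.72, 9.47 and 8.82 at day 91, after 10.53 to 10.93 on the early days, whereas phenobarbital arrays lay at 10.51 to 11.11 early and 10.12 to 10.79 late. Controls changed by -0.96 (SE 0.09, adjusted p = 1.07e-10) between early and late days and phenobarbital arrays by -0.26 (SE 0.09, adjusted p = 0.0125). The late minus early difference was 0.71 (SE 0.12, adjusted p = 0.00129).

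Among the responses that faded, Sult3a1 had the largest difference. Sult3a1 is a sulfotransferase that conjugates amines and is female-biased in mouse liver. Phenobarbital arrays read 8.98, 8.64, 10.47, 10.26 and 10.06 at day 1, 8.21, 9.72, 11.69, 11.76 and 11.91 at day 7, 4.80, 6.11, 6.13, 5.23 and 5.58 at day 28 and 6.76, 7.65, 6.07, 6.79 and 6.53 at day 91. Controls read 5.82, 7.20, 7.58 and 3.82 at day 1, 4.46, 3.66, 5.50, 4.31 and 5.26 at day 7, 4.28, 3.56, 4.07, 3.62 and 3.80 at day 28 and 4.24, 4.07, 3.59, 4.67 and 4.21 at day 91. The arms did not overlap on any day, the day 1 controls spread over more than 3 log2 units, and the phenobarbital arrays of days 28 and 91 lay below those of days 1 and 7. The effect was 3.57, 6.02, 1.70 and 2.60 at days 1, 7, 28 and 91, and the difference was -2.64 (SE 0.57, adjusted p = 0.00863).

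Abcc3, the exporter of glucuronides at the hepatocyte's blood-facing membrane, had a response that shrank as its controls rose. Its phenobarbital arrays stayed at 11.09 to 12.01 throughout. Control arrays read 10.14, 9.48, 8.42 and 10.22 at day 1 and 10.27, 10.03, 9.56, 9.47 and 9.47 at day 7, then 11.13, 10.87, 11.16, 10.91 and 11.01 at day 28 and 11.12, 11.38, 11.44, 11.26 and 11.33 at day 91. Every late control lay above every early control, and phenobarbital arrays stayed above the controls on each day. Controls changed by 1.50 (SE 0.14, adjusted p = 8.93e-11) and phenobarbital arrays by 0.30 (SE 0.13, adjusted p = 0.0623), and the late minus early difference was -1.20 (SE 0.19, adjusted p = 0.00042).

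Gsta2, a glutathione transferase, rose in both arms. Controls climbed from 8.61 to 10.27 early to 12.20 to 12.51 at day 91, and phenobarbital arrays from 10.61 to 11.80 to 12.44 to 12.76. The effect was 1.21, 2.05, 1.19 and 0.30 over the 4 days, of which the last, with an adjusted p of 0.236, missed the threshold, and the difference was -0.88 (SE 0.18, adjusted p = 0.00609). Ugdh, which makes the UDP-glucuronate used in glucuronidation, had effects of 0.92, 0.86, 0.67 and 0.35 and a difference of -0.38 (SE 0.08, adjusted p = 0.00706).

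The 28 tested conjugation enzymes had 6 members with a lower late effect (Sult3a1, Gsta2, Gsta3, Gstt1, Ugdh and Papss2) and 0 with a higher one, against 1.71% lower over all genes. Their median effect was 0.60 at day 1, 0.69 at day 7, 0.58 at day 28 and 0.31 at day 91, and the median difference was -0.09. Against 1.71% lower and 0.525% higher over all genes, 6 of the 23 tested phase I enzymes that respond to CAR were lower and 1, Cyp2c65, was higher. The 6 lower phase I enzymes were Cyp2c29, Cyp2c39, Cyp3a25, Ces2a, Aldh1a1 and Aldh1a7. The median effect of the 23 was 0.55, 0.67, 0.54 and 0.34 at days 1, 7, 28 and 91. The count of 6 lower phase I enzymes fell to 3 after quantile normalization and lay between 3 and 8 when 1 array was left out. It was 3 without each of 5 arrays, which were day 1 control replicates 2 and 3, day 7 phenobarbital replicates 4 and 5, and day 28 control replicate 1.

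Cyp2c29, an abundant cytochrome P450 of the Cyp2c cluster, had effects of 0.42, 0.71, 0.34 and 0.27 and a difference of -0.26 (SE 0.05, adjusted p = 0.00411). Its phenobarbital arrays lay at 14.38 to 14.67 on all days, near the top of the signal range, and its controls at 13.60 to 14.27. Srxn1, which repairs peroxiredoxins and is a target of NRF2, was the called gene of 13 in the NRF2 list, against 1.71% lower over all genes. The list's count was 2 or 3 in 8 of the fits that left out 1 array. The Srxn1 effect was 1.55, 0.36, 0.77 and 0.35, highest at day 1, and the difference was -0.39 (SE 0.10, adjusted p = 0.0214). Of its 4 probe sets 1 was called, and the call was lost with the mean of all probe sets (adjusted p = 0.0575) and without the suffixed ones (adjusted p = 0.0811). Counted from day 7 alone as the early phase, the difference turned to 0.20. Rsph4a, a component of ciliary radial spokes, had effects of 1.36, 1.38, 0.34 and 0.60 and a difference of -0.91 (SE 0.22, adjusted p = 0.0205), with all 4 control means below the lower quartile of the array. Slc25a4, the muscle-type ADP/ATP carrier of mitochondria, had a difference of -0.94 (SE 0.27, adjusted p = 0.0499), lost in 32 of the 39 fits that left out 1 array.

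Cyp2b10, Cyp2c55 and Cyp3a11, 3 known targets of CAR, were not called in the difference. Cyp2b10, the classical marker of phenobarbital induction in mice, read 13.97 to 14.21 at day 1 and 13.41 to 13.64 at day 91 with phenobarbital, against 5.88 to 8.37 in all controls. Its effect was 6.21, 6.36, 6.90 and 5.64 at days 1, 7, 28 and 91, and the late minus early difference was -0.01 (SE 0.21, adjusted p = 0.985). Cyp2c55 had effects of 3.99, 4.68, 4.01 and 3.45 and a difference of -0.60 (SE 0.22, adjusted p = 0.167). For Cyp3a11, whose controls already read 14.15 to 14.61, the difference was -0.10 (SE 0.03, adjusted p = 0.142), and the arms overlapped at days 1 and 91. For Nr1i3, the gene of CAR, phenobarbital had effects of 0.31, -0.59, -0.20 and -0.50 and a difference of -0.21 (SE 0.12, adjusted p = 0.431). Gadd45b, a stress-responsive partner of CAR, stayed raised, with effects of 2.46, 1.19, 1.29 and 1.59 and a difference of -0.39 (SE 0.21, adjusted p = 0.399). Of 21 tested nuclear receptors and co-factors 0 passed, against 2.23% over all genes.

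**Figure D3:**
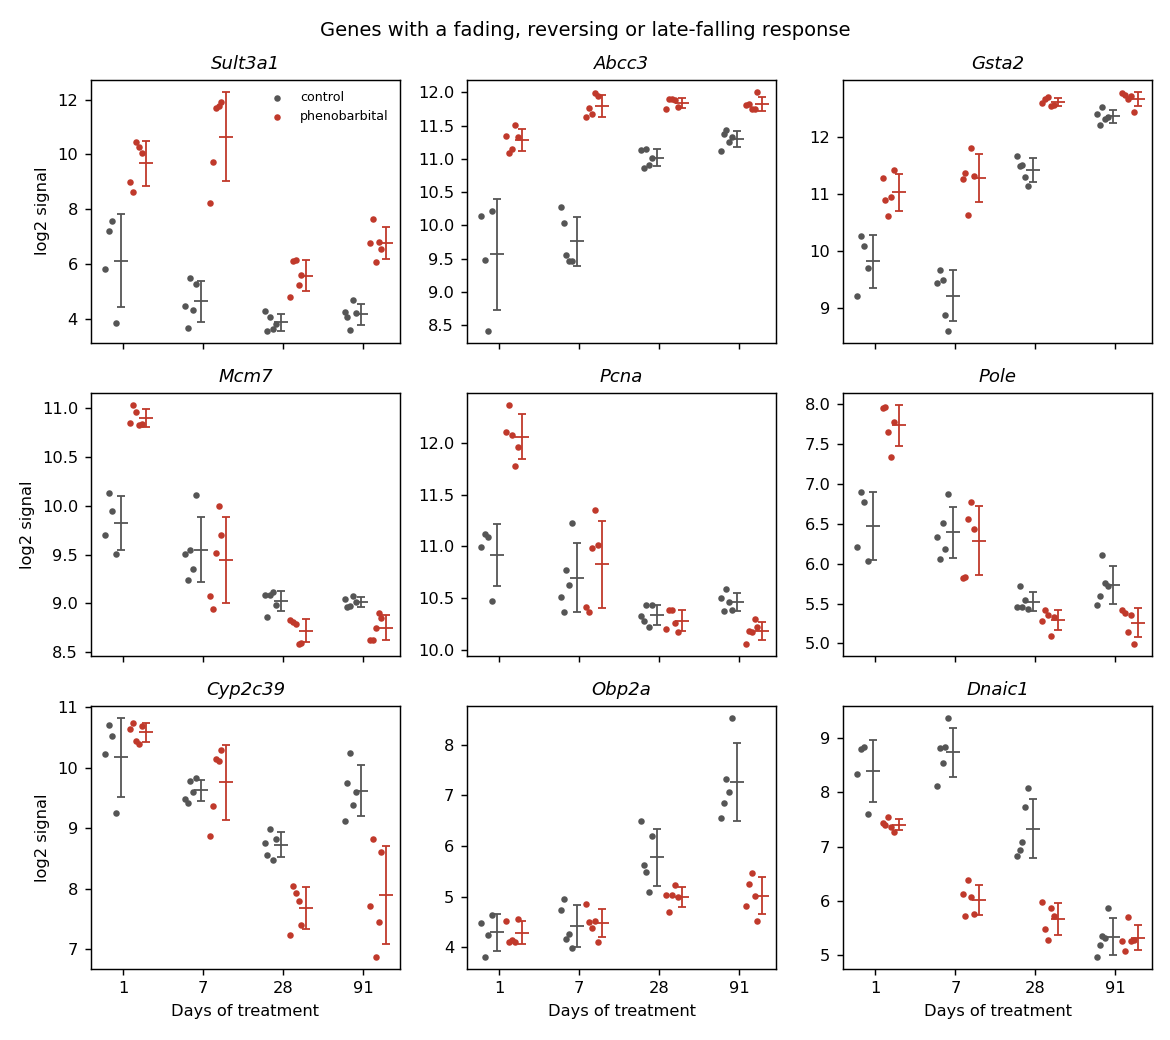
Signal per array (log2, vertical) by days of treatment for 9 genes, with control arrays in grey, phenobarbital arrays in red, and the group mean with SD beside the points. Abcc3 and Gsta2 controls rise towards the phenobarbital arrays, all phenobarbital arrays of Mcm7, Pcna and Pole lie above the controls at day 1 and below them at day 91, Cyp2c39 falls below controls late, and Obp2a rises late in controls.

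Of 28 tested DNA replication genes, 9 had a lower late effect (Mcm7, Pcna, Rrm1, Gins1, Orc6, Pole, Rfc4, Lig1 and Uhrf1) and 0 a higher one, against 1.71% lower over all genes. The other 19 did not pass, and the median difference was -0.54. The median effect was 1.11 at day 1 and then -0.06, 0.03 and -0.09 at days 7, 28 and 91. At day 7, still within the early phase, the median was already near 0. Leaving out 1 array moved the count of 9 between 8 and 13.

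The promoter windows of Mcm7 and Pcna are shown as the list's called members with the smallest p-values for which a window is given. Mcm7 is 1 of 2 listed windows, chr5:138171884-138172133, and Pcna is chr2:132253181-132253430, both on the minus strand of GRCm38.p6 from RefSeq, printed in the direction of the gene. Capitals mark CCAAT matches, all of them on the other strand (ATTGG), 2 in Mcm7 and 1 in Pcna.

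Mcm7: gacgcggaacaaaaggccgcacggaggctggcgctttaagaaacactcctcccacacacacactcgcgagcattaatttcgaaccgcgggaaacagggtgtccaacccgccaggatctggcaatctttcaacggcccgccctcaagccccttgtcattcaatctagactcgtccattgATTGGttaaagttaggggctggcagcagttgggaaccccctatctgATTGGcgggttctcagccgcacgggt
Pcna: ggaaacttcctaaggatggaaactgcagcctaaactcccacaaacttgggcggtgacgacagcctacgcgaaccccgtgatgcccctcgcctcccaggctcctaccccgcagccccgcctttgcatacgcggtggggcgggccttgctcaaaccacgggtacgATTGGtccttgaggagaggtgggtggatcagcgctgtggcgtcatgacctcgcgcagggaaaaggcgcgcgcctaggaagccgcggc

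CCAAT was found on either strand in 64.3% of the 28 windows of DNA replication genes (23 of the list's 28 tested genes), in 76.0% of the 25 windows of mitosis genes, in 44.0% of the 25 windows of phase I enzymes and in 33.9% of all 32851 windows of this length. TTTGAA, the core of an element in cell cycle promoters, was in 10.7%, 32.0%, 40.0% and 16% of these windows. TATAAA was in 7.14%, 0%, 36.0% and 12.4%. A direct repeat of the nuclear receptor core with a spacer of 4 bases (DR4) was in 5 windows of all and in 0 of the 3 lists. These matches describe the letters of the windows.

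Mcm7, a subunit of the replicative helicase, read 10.84, 11.03, 10.96, 10.82 and 10.84 at day 1 with phenobarbital and 9.70, 10.13, 9.94 and 9.51 in controls, so the arms did not overlap. At day 7 the values were 9.08, 8.94, 9.52, 9.99 and 9.70 with phenobarbital and 9.51, 9.24, 9.54, 9.35 and 10.10 in controls, and the arms overlapped. At day 28 they were 8.83, 8.81, 8.79, 8.59 and 8.60 against 9.08, 8.87, 9.09, 9.11 and 8.98, and at day 91 8.63, 8.63, 8.75, 8.90 and 8.86 against 9.05, 8.97, 8.97, 9.08 and 9.01, with every phenobarbital array below all controls on both days. The effect was 1.08, -0.10, -0.31 and -0.26 over the 4 days, and the difference was -0.77 (SE 0.14, adjusted p = 0.002). All 4 Mcm7 probe sets passed in this direction.

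Pcna, the sliding clamp of DNA polymerases, lay at 11.78 to 12.37 with phenobarbital and 10.47 to 11.12 in controls at day 1, and at 10.06 to 10.30 and 10.38 to 10.59 at day 91. Its effect was 1.14, 0.13, -0.06 and -0.28 and its difference -0.80 (SE 0.15, adjusted p = 0.0018). Pole, the catalytic subunit of DNA polymerase epsilon, had effects of 1.26, -0.11, -0.22 and -0.47 and a difference of -0.92 (SE 0.17, adjusted p = 0.00227). Uhrf1, which recruits the maintenance methyltransferase to replicating DNA, had an effect of 1.62 at day 1 and of 0.07 at day 91, with a difference of -0.72 (SE 0.16, adjusted p = 0.00958). With day 7 alone as the early phase its difference was 0.02. Dnmt1, that methyltransferase, had effects of 0.64, -0.02, -0.05 and -0.17 and a difference of -0.42 (SE 0.10, adjusted p = 0.0153).

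Of 29 tested mitosis genes 1 passed with a lower late effect, against 1.71% over all genes. All 29 had a difference below 0, with a median of -0.38, and 7319 of all 12580 tested genes lay below 0. The called gene was Bub1b, a kinase of the spindle checkpoint, at -0.75 (SE 0.19, adjusted p = 0.027). The call was lost without day 7 phenobarbital replicate 4, with the mean of all probe sets (limma adjusted p = 0.0683) and without the suffixed ones (0.15). The list's count was 2 or 3 without any of 7 other arrays, among them day 1 control replicates 1 and 3 and day 7 control replicate 5. The median effect was 1.17 at day 1, -0.20 at day 7, 0.12 at day 28 and -0.02 at day 91. The list mean had an SD of 0.73 among the day 1 controls and 0.50 among the day 7 controls, against 0.05 at day 28.

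Mki67, the standard proliferation marker, read 9.36, 10.04, 9.69, 10.18 and 9.60 with phenobarbital and 9.03, 8.89, 8.82 and 6.76 in controls at day 1, where control replicate 4 was the low array. Its difference was -0.44 (SE 0.37, adjusted p = 0.633). Pbk, a mitotic kinase, had a difference of -1.10 (SE 0.29, adjusted p = 0.0374), lost in 17 of the 39 fits that left out 1 array and turned to 0.13 with day 7 alone as the early phase. Cenpk, a centromere protein, had a difference of -0.91 (SE 0.23, adjusted p = 0.0287), lost without day 1 control replicate 4, day 7 control replicate 2 or day 7 phenobarbital replicate 4. E2f1, the G1/S transcription factor, had one of -0.32 (SE 0.09, adjusted p = 0.0459), lost in 28 fits. Cdkn1a, the p53 target that halts the cycle, was not called, at -0.41 (SE 0.29, adjusted p = 0.548).

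**Figure D4:**
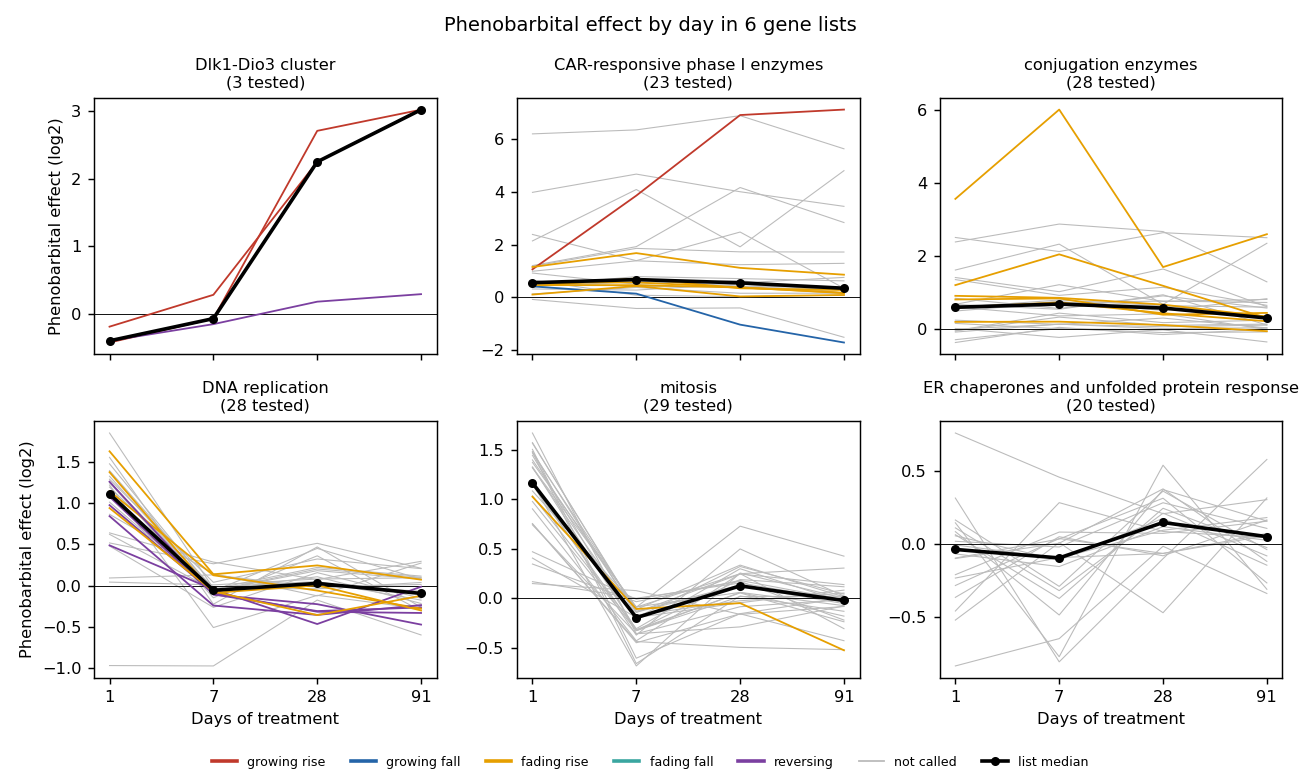
Phenobarbital effect (log2, vertical) at days 1, 7, 28 and 91 for the tested members of 6 gene lists, 1 thin line per gene coloured by class where called, with the list median in black. Medians of DNA replication and mitosis drop from 1.11 and 1.17 at day 1 to -0.06 and -0.20 at day 7, and the Dlk1-Dio3 median climbs to 3.02 at day 91.

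Falls that grew with duration were small in most of the 72 genes, with a median difference of -0.32. Cyp2c39, a retinoic acid hydroxylase of the Cyp2c cluster, had the largest difference in this class. Its phenobarbital arrays read 10.65, 10.74, 10.44, 10.39 and 10.69 at day 1, 8.86, 9.37, 10.14, 10.12 and 10.30 at day 7, 7.23, 8.04, 7.93, 7.79 and 7.39 at day 28 and 7.71, 8.81, 6.87, 7.45 and 8.61 at day 91. Controls read 10.22, 10.71, 10.52 and 9.24 at day 1, 9.49, 9.42, 9.79, 9.59 and 9.83 at day 7, 8.76, 8.56, 8.99, 8.48 and 8.83 at day 28 and 9.12, 9.74, 10.24, 9.38 and 9.60 at day 91. The arms overlapped on the early days, and every late phenobarbital array lay below the controls of its day. The effect was 0.41, 0.13, -1.05 and -1.72 over the 4 days and the difference -1.66 (SE 0.29, adjusted p = 0.00129).

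Obp2a, an odorant-binding lipocalin, also fell behind its controls. Control arrays read 6.49, 5.61, 5.49, 5.09 and 6.2 at day 28 and 6.54, 6.85, 7.33, 7.06 and 8.53 at day 91, after 3.81 to 4.96 early. Phenobarbital arrays lay at 4.10 to 4.86 early, 4.69 to 5.23 at day 28 and 4.52 to 5.47 at day 91. Controls changed by 2.16 (SE 0.19, adjusted p = 4.09e-11) and phenobarbital arrays by 0.63 (SE 0.18, adjusted p = 0.00488), and the difference was -1.54 (SE 0.26, adjusted p = 0.00126).

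Further growing falls are given by gene. Acnat2, an acyltransferase of the family that conjugates bile acids and fatty acids with amino acids, had effects of 0.68, -0.32, -0.57 and -1.08 and a difference of -1.0 (SE 0.19, adjusted p = 0.0032). Nt5e, the ecto-nucleotidase CD73, had effects of -0.04, 0.34, -0.72 and -0.82 and a difference of -0.92 (SE 0.19, adjusted p = 0.00535), with 1 of its 3 probe sets called. Ntrk2, the receptor of brain-derived neurotrophic factor and female-biased in mouse liver, had effects of -0.19, -0.16, -0.49 and -1.10 and a difference of -0.62 (SE 0.14, adjusted p = 0.0111), with 2 of 8 probe sets called. Spc25, a kinetochore subunit, had effects of 0.75, -0.59, -0.86 and -1.05 and a difference of -1.03 (SE 0.25, adjusted p = 0.019). Its other probe set gave 0.16. Rgs5, a pericyte marker, had a difference of -0.29 (SE 0.08, adjusted p = 0.0406), lost in 22 fits that left out 1 array. It was the single called gene of the 14 stellate cell and collagen markers tested, against 1.71% lower over all genes. Of these markers 13 had a difference below 0, as did 7319 of all 12580 tested genes, and the list's median was -0.15. In the early effect on its own 4 of the 14 were called lower and in the late effect 9, against 18.2% and 19.8% over all genes. The list mean of those markers was 9.36 with an SD of 0.14 in the day 1 controls and 9.28 with an SD of 0.11 with phenobarbital, and at day 28 it was 8.63 and 8.35. In whole liver, fewer cells of a type and less RNA per cell cannot be told apart.

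Falls that faded included Dnaic1, a dynein arm component of motile cilia. Its controls read 8.33, 8.80, 8.82 and 7.59 at day 1, 8.11, 8.81, 8.53, 8.83 and 9.37 at day 7, 6.83, 6.93, 7.08, 7.73 and 8.08 at day 28 and 4.97, 5.19, 5.36, 5.32 and 5.88 at day 91. Phenobarbital arrays read 7.43, 7.40, 7.54, 7.36 and 7.26, then 6.12, 5.73, 6.39, 6.07 and 5.76, 5.99, 5.49, 5.28, 5.87 and 5.72 and 5.25, 5.09, 5.71, 5.27 and 5.29 on the same days. Every phenobarbital array lay below the controls up to day 28, and the arms overlapped at day 91, where controls had come down to the phenobarbital level. The effect was -0.99, -2.72, -1.66 and -0.02 and the difference 1.01 (SE 0.23, adjusted p = 0.0111).

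Hes6, a partner of the Hes transcriptional repressors, had effects of -0.70, -0.42, 0.13 and 0.27 and a difference of 0.76 (SE 0.15, adjusted p = 0.00459), and both of its probe sets passed. Chka, choline kinase of phosphatidylcholine synthesis, had effects of -0.93, -0.96, 0.12 and -0.31 and a difference of 0.85 (SE 0.20, adjusted p = 0.018). The Chka call was lost with the mean of all probe sets (limma adjusted p = 0.0677) and without the suffixed ones (0.117). It was also lost with the spike-in mean in the fit (0.0517). Atp4a, the gastric proton pump subunit, and Pkdcc, a secreted tyrosine kinase, had differences of 0.86 (SE 0.19, adjusted p = 0.0111) and 0.72 (SE 0.17, adjusted p = 0.018). Hsd17b13, a lipid droplet protein on the periportal list, had one of 0.29 (SE 0.07, adjusted p = 0.0263), lost without day 1 control replicate 4. The Hsd17b13 call was also lost with the mean of all probe sets (limma adjusted p = 0.197), and its other probe set gave 0.11.

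The 37 reversing genes were mostly raised at day 1 and lowered late, with 33 of them lower in the difference. Their median effect was 0.44 at day 1 and -0.26 at day 91. Tcf19, a transcription factor induced at the G1/S transition, had effects of 1.31, -0.21, -0.41 and -0.52 and a difference of -1.01 (SE 0.23, adjusted p = 0.0107). Ctcflos, an antisense transcript of Ctcfl, had effects of 0.55, 0.18, -0.37 and -0.54 and a difference of -0.82 (SE 0.18, adjusted p = 0.0107), while its controls rose by 1.05 (SE 0.13, adjusted p = 5.78e-08). Pfn2, an actin-binding profilin, ran the other way. Its phenobarbital arrays read 5.83, 6.38, 6.90, 7.03 and 6.63 at day 1 and 8.04, 7.70, 8.10, 7.92 and 8.43 at day 91, against 7.24, 7.15, 6.89 and 7.01 and 7.45, 7.08, 7.38, 7.03 and 6.87 in controls. The effect was -0.52, -0.19, 0.12 and 0.87, the difference was 0.85 (SE 0.17, adjusted p = 0.00476), and all 3 probe sets passed.

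Because the difference subtracts the change of the controls from the change of the phenobarbital arrays, both were tested. From early to late days 2632 genes rose and 3448 fell in the phenobarbital arrays (20.9% and 27.4%, together 48.3%), and 2555 rose and 2724 fell in the controls (20.3% and 21.7%, together 42.0%). Among the 281 genes the phenobarbital arrays changed significantly in the direction of the difference in 215, and the controls changed significantly in the opposite direction in 91. The change was larger in the phenobarbital arrays than in the controls in 203. Kcnk1, Nebl and Cyp2c65 lay at one extreme, with control changes of 0.31, 0.17 and -0.12 that did not pass. At the other, Abcc3, Atp4a and Cdh1 had the larger change in their controls, of 1.50, -1.14 and -0.96.

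**Figure D5:**
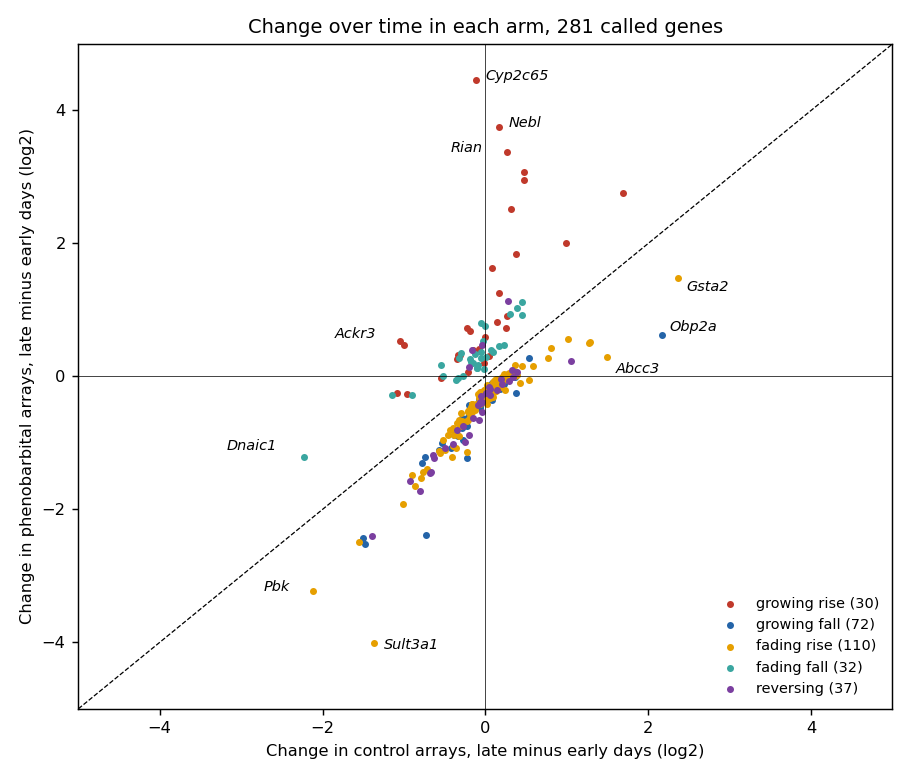
Change from early to late days in control arrays (horizontal) and in phenobarbital arrays (vertical), both log2, for the 281 called genes coloured by class, with the dashed line marking equal change. Cyp2c65, Nebl and Rian rise on the phenobarbital axis near 0 in controls, and Obp2a, Gsta2 and Abcc3 lie far to the right where controls rose.

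Of the sex-biased liver genes, 2 of 14 male-biased genes were called higher and 2 of 15 female-biased genes lower. Both shares lay above those over all genes, 0.525% higher and 1.71% lower. A difference above 0 was seen in 5261 of all 12580 tested genes and in all 14 male-biased genes, whose median was 0.46. Of them 2 passed, Moxd1, described above, and Nudt7, a peroxisomal hydrolase of coenzyme A, at 0.29 (SE 0.08, adjusted p = 0.0405), lost in 19 of the fits that left out 1 array. The median effect of this list was -0.61, -0.45, -0.04 and -0.07 at days 1, 7, 28 and 91. The 15 tested female-biased genes had a median effect of 1.20 at day 1, 1.10 at day 7, 0.36 at day 28 and 0.24 at day 91, and a median difference of -0.42, with 2 lower, Sult3a1 and Ntrk2, and 0 higher. In the late effect on its own, 5 female-biased genes were higher and 2 lower. Spread in the young controls was wide. The list mean had an SD of 0.88 for male-biased and 0.90 for female-biased genes among the day 1 controls, against 0.07 and 0.18 at day 28.

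Several other pathways had no called member at this threshold, against 2.23% called over all genes. The 18 Wnt and perivenous genes had 0 called, with Ctnnb1 (beta-catenin) at 0.03 (SE 0.04, adjusted p = 0.841), Axin2 at -0.03 (SE 0.13, adjusted p = 0.95) and Glul (glutamine synthetase) at 0.09 (SE 0.07, adjusted p = 0.581). Of 14 DNA methylation and hydroxymethylation genes, the 2 called lower, against 1.71% over all genes, were Dnmt1 and Uhrf1, described with replication. The remaining enzymes of that list named here, Dnmt3a at 0.18 (SE 0.09, adjusted p = 0.371), Dnmt3b at 0.10 (SE 0.14, adjusted p = 0.819), Tet2 at 0.13 (SE 0.10, adjusted p = 0.602) and Tet3 at -0.08 (SE 0.08, adjusted p = 0.708), were not called. The lists of PPARA targets, with 24 tested genes and a median effect of -0.16 at day 1 and -0.33 at day 91, of gluconeogenesis and of bile acid handling also had 0 called. At an unadjusted p under 0.05 the difference had 1883 genes in all.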

How the data were processed

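Expression was measured on 39 Affymetrix mouse arrays with 45101 probe sets, from 0.1 µg of liver RNA labelled by the 3' IVT Express procedure, per the labels' protocols. The authors deposited values on a log2 scale, with GCOS as the tool named in the submitters' processing notes. How probes were normalized and summarized is not given in the sources. The treatment protocol speaks of 28 days, but the durations per sample, up to 91 days, were used.

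Of the probe sets 34945 had 1 gene symbol in the platform annotation, 932 several and 9160 none, and 64 controls were set aside. Each of 18193 genes was represented by its brightest probe set and tested when above the array median on at least 4 arrays, which left 12580 genes. Nebl, Moxd1 and Tmeff2 passed this filter only through late phenobarbital arrays, Rsph4a only through early phenobarbital arrays, and Obp2a only through late controls. Gm10419 and Cyp2d12 could not have passed without their late phenobarbital arrays, and Cyp2c65 passed only through phenobarbital arrays of days 7, 28 and 91. These are the groups where they are high, so their selection and their p-values share the same values. Each was also called without the filter. One mean per group was fitted in limma 3.58.1 under R 4.3.3, with a trend in the prior variance (31 residual degrees of freedom), and p-values are 2-sided with Benjamini-Hochberg adjustment. The number of arrays limits precision. On simulated data with 200 of 12580 genes changed, 83% of differences of 0.5 and 97% of 1 in the late minus early contrast were recovered, with 7.69% false calls. The simulation gave a gene the same spread in all groups, made genes independent and shifted the late phenobarbital arrays alone. In the data the spread differed between groups, so these shares need not hold here.

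A growing response has a called late effect and a fading one a called early effect, the larger in size deciding where both were called, and a reversing one has 2 effects of opposite sign. Gene lists numbered 38 (689 genes, 561 tested), with 2 genes matched by an older symbol. The genes named are the 12 highest and 12 lowest differences whose 4 day-to-day differences share 1 sign, the 5 largest per class, up to 3 called genes per list or the nearest to the threshold, and known genes such as Cyp2b10, Mki67 and the Dnmt and Tet genes, 86 in all. The members and lists were chosen with earlier results of these data known. Promoter windows are RefSeq's on GRCm38.p6, cut to 250 bases before the start. Python 3.11.15 drew the figures.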

Additional observations from a re-analysis of the deposited data

Results flagged for a closer look

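The difference between late and early phenobarbital effects was itself tested, and the 281 genes that passed are the subject of the results above. Values of single arrays were also checked in 688 sets, each 1 named gene in 1 group, for a highest or lowest array that lies further from its nearest neighbour than Dixon's limit at 95% allows. In 29 of the 688 sets an array stood apart, a smaller share than the 1 in 20 that chance alone flags at this limit. The flags came from 20 arrays with at most 3 on any array, and are listed below as a description.

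Proliferation genes stood apart in the day 1 controls. Replicate 4 of that group read 6.76 (nearest 8.82) for Mki67 and 6.29 (nearest 7.93) for Pbk, and it was also low in Serpinb1a at 5.16 (nearest 5.39). Day 91 control replicate 3 was high in Pbk at 5.75 (nearest 5.30), in the kinetochore gene Spc25 at 8.08 (nearest 7.27) and in Srxn1 at 8.58 (nearest 8.20), while replicate 2 of that group was low in Tcf19 at 6.28 (nearest 6.68).

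Among growing rises, Rian was high in day 28 control replicate 5 at 6.23 (nearest 5.36) and low in day 28 phenobarbital replicate 4 at 7.34 (nearest 8.25). Mirg, of the same cluster and in the reversing class, was high in day 7 phenobarbital replicate 2 at 6.62 (nearest 6.43). Nebl was low in day 1 phenobarbital replicate 3 at 4.25 (nearest 4.46), Tmeff2 in day 1 control replicate 2 at 4.31 (nearest 4.45), while Orm3, an acute phase gene, was high in day 7 control replicate 4 at 7.11 (nearest 6.23).

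Enzyme genes gave further values. Ugdh read 12.82 (nearest 12.67) in day 28 phenobarbital replicate 1, Cyp2c55 13.55 (nearest 13.50) in day 28 phenobarbital replicate 4, Cyp4a31 8.61 (nearest 7.60) in day 28 control replicate 3 and Cyp8b1 11.39 (nearest 11.90) in day 7 control replicate 4. Nudt7 read 13.51 (nearest 13.71) in day 7 control replicate 5 and 12.89 (nearest 13.23) in day 1 phenobarbital replicate 1. Ahcy read 13.94 (nearest 13.81) in day 1 control replicate 3, Apoc3 14.57 (nearest 14.53) in replicate 2 and Calr 13.12 (nearest 13.35) in replicate 1 of the same group.

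The pancreas gene Cela1 read 11.93 (nearest 10.35) in day 1 phenobarbital replicate 3, the array with high pancreas markers. Single values also stood apart for Fabp4 at 9.91 (nearest 9.57) in day 1 phenobarbital replicate 2, Chka at 8.49 (nearest 9.25) in day 7 phenobarbital replicate 3, Ifit3 at 8.65 (nearest 9.14) and Pparg at 6.26 (nearest 6.66) in day 7 phenobarbital replicate 1, Hes6 at 10.44 (nearest 10.85) in day 91 control replicate 5, and Tet2 at 8.83 (nearest 8.57) in day 28 control replicate 1.

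Probe sets without a gene symbol, left out of the results above, also differed. Of 9160 fitted, 20 passed, 15 with a higher and 5 with a lower late effect. The largest, 1438068_at, had a difference of 1.77 (SE 0.21, limma adjusted p = 1.01e-06). Its group means were 5.78 at day 28 and 6.61 at day 91 with phenobarbital, against 3.66 and 3.65 in controls. Another, 1443137_at, had an effect of 5.98 early and 5.33 late on the log2 scale, and the difference was -0.64 (SE 0.15, limma adjusted p = 0.034).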

How the results depend on the processing

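Of the 51 named genes that passed, 39 passed in each of the 39 fits that left out 1 array, and 34 of these also passed under quantile normalization, centring on the median, other filters, probe set rules, prior variances, array weights and both covariates, in each setting where the gene was tested. The remaining ones were Srxn1 and Chka, given above, with Dnaic1, Spc25 and Tcf19. Dnaic1 lost its call without suffixed probe sets (limma adjusted p = 0.0709). Spc25 lost it with the mean of all probe sets (0.0924), and with the spike-in covariate both Spc25 (0.0686) and Tcf19 (0.0517) did. The count of higher and lower genes late minus early was 43 and 140 without probe sets ending in _s_at, _x_at or _a_at, 192 and 436 with array weights, and 679 and 1424 as a slope on log10 days. With day 28 alone as the late phase it was 40 and 54, with day 91 alone 511 and 981, and with day 1 alone as the early phase 505 and 1199. With day 7 alone 137 passed, of which 72 were lower, and the difference changed sign in Orm3 (-0.080), Pbk (0.13), Srxn1 (0.20) and Uhrf1 (0.021). Most of the 281 calls depended on days 1 and 91. Of the 281, 251 passed in the same direction with day 1 alone as the early phase, but 42 with day 7 alone. With day 91 alone as the late phase 234 did, but 51 with day 28 alone. For the early effect, quantile normalization gave 2309 higher, no filter 2429 higher, and centring 1411 lower. For the late effect, quantile normalization gave 1520 higher and 1436 lower, no filter 1846 higher, centring 1384 lower, and a filter at the 75th percentile 563 and 1642. That filter gave 2283 falls in the phenobarbital arrays and 1769 in the controls, with fewer genes tested. Growing rises were 65 with array weights. Growing falls were 46 under quantile normalization, 37 under centring, 47 without the filter, 47 with the mean of all probe sets, 44 without the suffixed probe sets and 142 with array weights. Fading rises were 69 and 243, and fading falls 19 and 119, in the last 2 settings. Fading falls were also 19 without the filter and 58 with the spike-in covariate. Reversing genes were 24, 19 and 24 under quantile normalization, centring and the 3 prime minus 5 prime covariate.

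Leaving out 1 array gave 41 to 90 genes higher and 147 to 291 lower late minus early, 1366 to 1572 and 1977 to 2340 for the early effect, 856 to 1044 and 2140 to 2555 for the late effect, 2493 to 2694 and 3248 to 3506 for the phenobarbital arrays, and 2355 to 2574 and 2507 to 2799 for the controls. Growing rises ranged from 21 to 36, growing falls from 47 to 106, fading rises from 71 to 145, fading falls from 18 to 53 and reversing genes from 28 to 43. The cause of these shifts was not tested. No paired analysis was possible because the labels give no replicate numbers, and those used here only name arrays in order of deposition. Signal limits dim genes: the control means of Cyp2c65 lay below the lower quartile of the arrays.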

Other observations

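Over all 12580 tested genes, 5261 had a late effect above the early one and 2.23% passed. Of 20 tested chaperones and unfolded protein response genes of the endoplasmic reticulum, 19 had a late effect above the early one. The median difference of these 20 genes was 0.18, and 0 passed. Calr, the chaperone calreticulin, was nearest at 0.19 (SE 0.05, limma adjusted p = 0.0585). The median effect of this list was -0.04 at day 1, -0.10 at day 7, 0.15 at day 28 and 0.05 at day 91. The 18 tested interferon response genes had a median effect of 0.39 at day 7 and 0.06 at day 91. None of them passed, and Ifit3, an interferon-induced protein, had a difference of -0.30 (SE 0.12, limma adjusted p = 0.205).

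Pnpla3, at 1.47 (SE 0.39, limma adjusted p = 0.0372), was the called member of 20 lipogenesis genes, against 0.525% higher over all genes. Of the 20, 16 had a difference above 0, against 5261 of all 12580 tested genes. Pnpla3 lost its call in 15 of the fits that left out 1 array. Tm7sf2, a sterol reductase at -0.24 (SE 0.07, limma adjusted p = 0.0476), was the called member of 20 cholesterol synthesis genes, against 1.71% lower over all genes. It lost its call in 30 of these fits. None of 16 clock genes passed, with Per2 at 0.45 (SE 0.17, limma adjusted p = 0.186), although 1 of its 3 probe sets passed in the fit of all probe sets. Pparg, a receptor that drives fat storage, was not called at -0.59 (SE 0.17, limma adjusted p = 0.0588), and passed in 6 of the fits that left out 1 array.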
